A study of Homo sapiens with 24 samples.

Results

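The 10 genes described here encode inflammatory chemokines, cytokines and a receptor: CXCL8, CXCL1, CXCL2, CXCL3, CCL2, IL1A, IL1B, IL6, LIF and TREM1. They were chosen by symbol and matched by Ensembl identifier, and all 10 were found among the 58735 genes of each count file. They were measured by RNA sequencing in the human line HT-144, an established culture of malignant melanoma cells taken from a metastatic site. RNA was taken on day 3 after reverse transfection with a lipid reagent, in RPMI-1640 medium with insulin, transferrin and selenium. By its title the series asks what an SREBF1-depleting antisense reagent does specifically. The 3 SREBF1-targeting groups received an siRNA pool against SREBF1 at 50 nM (siSREBF1), the antisense oligonucleotide (ASO) S1 against SREBF1 at 5 nM (ASO-SREBF1-S1) or the ASO S4 against SREBF1 at 5 nM (ASO-SREBF1-S4). The 3 control groups received a negative siRNA at 50 nM (siNegative), a negative ASO at 5 nM (ASO-Neg) or a mock transfection. SREBF1 encodes the sterol-regulated factor that switches on fatty acid synthesis. Each group was 1 library of polyadenylated RNA, sequenced as 4 technical replicates (lanes) that were summed. Members therefore have 1 value per reagent, and the 3 libraries of a side are different reagents rather than repeats of 1 treatment.

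CXCL8, CXCL1, CXCL2 and CXCL3 are small secreted chemokines that draw neutrophils through the receptors CXCR1 and CXCR2, and CCL2 draws monocytes through CCR2. IL1A and IL1B encode the interleukin-1 cytokines, which signal through a shared receptor to NF-kB and raise the transcription of chemokines and of IL6. LIF and IL6 signal through receptors that contain the IL6ST chain and act on STAT3. TREM1 is a receptor known from myeloid cells, where it signals through the adaptor TYROBP and amplifies inflammatory output. Melanoma lines are known to secrete several of these proteins themselves.

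The libraries held 12916478 to 47900277 gene counts, and ASO-SREBF1-S1 was the deepest. Levels are in CPM, which sets a gene's count against its library's total, scaled by edgeR's TMM factors. Before TMM scaling, 3 counts were worth 0.063 CPM in ASO-SREBF1-S1 and 0.232 CPM in mock, the shallowest library. SREBF1 stood at 55.0 CPM in siSREBF1, 77.1 CPM in ASO-SREBF1-S1 and 70.4 CPM in ASO-SREBF1-S4, against 250 CPM in siNegative, 217 CPM in ASO-Neg and 232 CPM in mock. All 8 markers of the melanocytic lineage were present at 1 CPM or more in at least 1 library, with sums of 4050 to 5420 CPM in the targeting and 4700 to 6140 CPM in the control libraries. Of 8 immune markers 7 were under 1 CPM in every library, and the sum of the 8 was 1.64 to 3.69 CPM in the targeting and 1.33 to 1.42 CPM in the control libraries. Marker sums overlapped between the sides for fibroblasts (634 to 933 CPM in targeting against 666 to 879 CPM in control libraries), keratinocytes (23.0 to 29.4 CPM in targeting against 23.4 to 25.4 CPM in control) and endothelium (38.3 to 58.2 CPM in targeting against 38.6 to 42.9 CPM in control). Each of these sums was mostly 1 gene. Over all libraries these were COL1A2 (558 to 875 CPM), KRT10 (21.5 to 28.3 CPM) and KDR (34.7 to 55.7 CPM). LUM, a fibroblast marker, was lower in every targeting library (50.6 to 70.6 CPM) than in every control (74.4 to 84.7 CPM). At low levels KRT17 and KRT5 were also lower without overlap, and CDH5 and the immune markers LYZ and CSF1R were higher. LYZ stood at 0.436 to 1.48 CPM in the targeting and 0.235 to 0.353 CPM in the control libraries. CSF1R stood at 0.308 to 0.672 CPM in the targeting and 0.118 to 0.157 CPM in the control libraries. KRT1 and CLDN5 had no counts. In bulk RNA, more cells that express a gene and more RNA per cell cannot be told apart.

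Of the 10 genes, CXCL8, CXCL1, IL1A, IL1B and CCL2 stood higher in each of the 3 SREBF1-targeting libraries than in each of the 3 controls. The means of these 5 differed by 2.11-fold (CXCL1) to 4.70-fold (IL1B), and the highest value of each was in siSREBF1. Such a pattern, higher in all 3 without overlap, held for 8.87% of the 15123 genes tested. LIF and TREM1 overlapped between the sides. CXCL2, CXCL3 and IL6 were under 1 CPM in all 6 libraries. edgeR's quasi-likelihood F test of the 3 targeting against the 3 control libraries put no member past an adjusted p of 0.05, where 0.0595% of all genes passed. The members' count of 0 sits beside 5 of 7 tested members with an unadjusted p under 0.05, where 10.2% of all genes had one in either direction and 4.93% had one with a higher level. All 5 were higher, and 1 of them, IL1B, passed the low-count filter through the targeting libraries alone, so the count is no support for a difference. DESeq2's Wald test called 5 members among 170 of 15123 genes, and limma-voom called no member. With ASO-SREBF1-S1 left out, edgeR called CXCL8 (log2 ratio 2.00, edgeR adjusted p = 0.0108), IL1A (2.41, adjusted p = 0.0488) and TREM1 (1.41, adjusted p = 0.021), among 103 of 15310 genes. Leaving out any of the other 5 libraries gave 0 members.

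**Figure D1:**
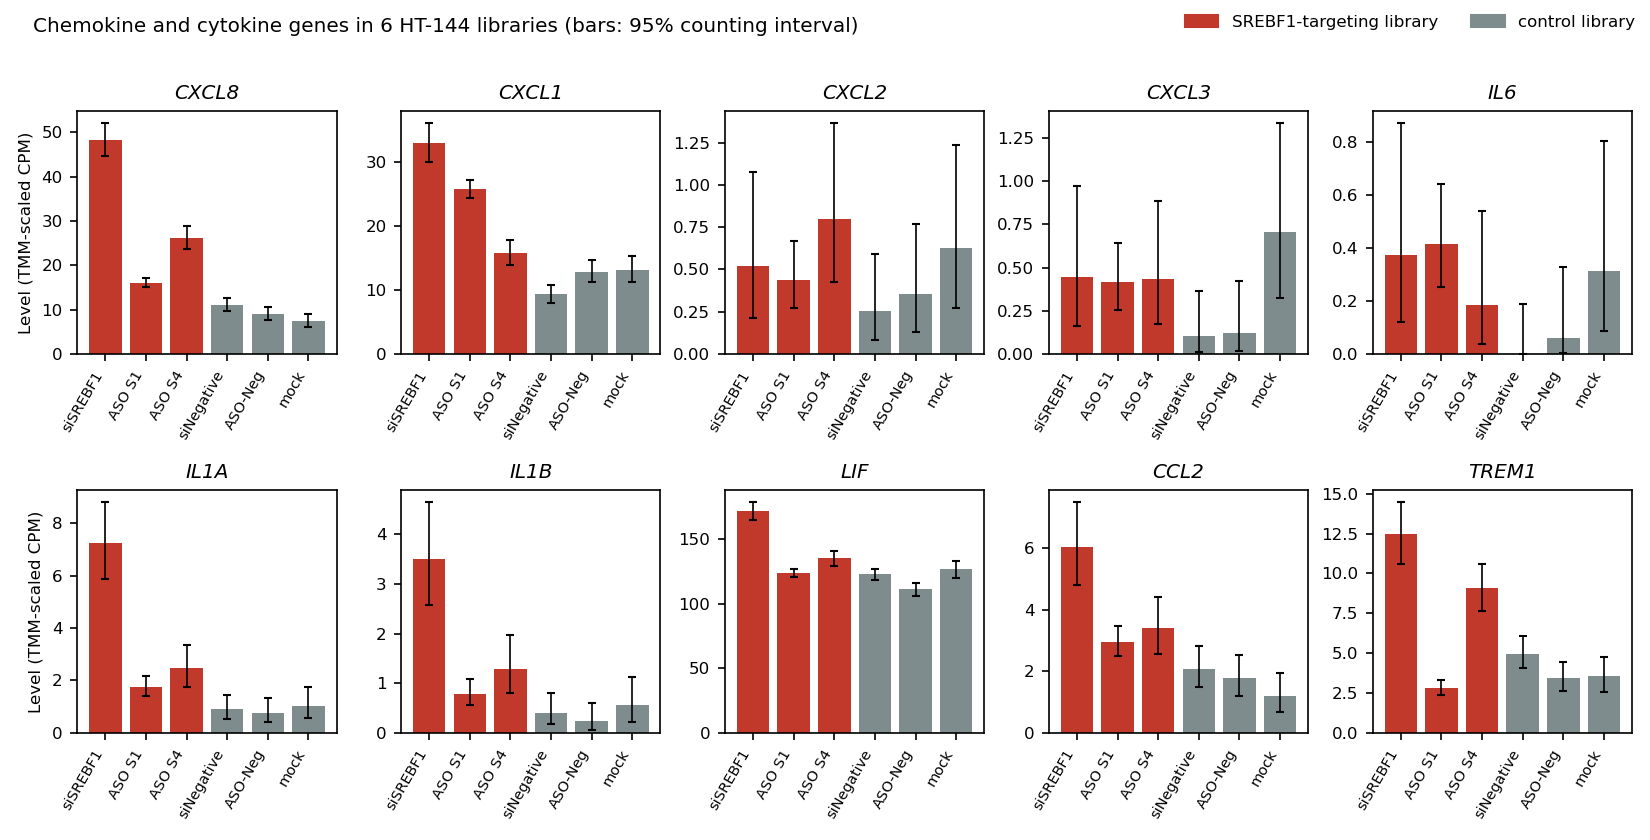
Level of each gene in TMM-scaled CPM (vertical axes, each starting at 0 with its own scale) in the 3 SREBF1-targeting libraries (red) and the 3 control libraries (grey), with 1 library per bar and 95% counting intervals. CXCL8, CXCL1, IL1A, IL1B and CCL2 are highest in siSREBF1 and higher in all red than in all grey bars, while the TREM1 level in ASO-SREBF1-S1, 2.80 CPM, is below every control.

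CXCL8, the chemokine also known as interleukin-8 (ENSG00000169429, GRCh38 chromosome 4, 73740519 to 73743716), had the largest difference in CPM among the chemokines. It stood at 48.4 CPM in siSREBF1, 16.1 CPM in ASO-SREBF1-S1 and 26.2 CPM in ASO-SREBF1-S4, against 11 CPM in siNegative, 9.07 CPM in ASO-Neg and 7.38 CPM in mock. The sides did not overlap, and the targeting mean of 30.2 ± 16.5 CPM stood against 9.16 ± 1.83 CPM in the controls (SD, n = 3 each). In unscaled CPM the 4 lanes gave 46.4 to 54.0 in siSREBF1, 15.6 to 16.9 for ASO-SREBF1-S1 and 25.3 to 27.9 for ASO-SREBF1-S4, against 7.82 to 13.0 in siNegative, 7.80 to 9.96 in ASO-Neg and 6.05 to 8.86 in mock. Lane ranges of the 3 targeting libraries lay apart from each other, while those of the 3 controls overlapped. The fitted log2 ratio was 1.67 with an SE of 0.36, and its edgeR adjusted p was 0.185. An exact permutation test over the 6 libraries gave p = 0.1 for CXCL8 (2-sided), which is the smallest p that 3 against 3 allows, and the same p for CXCL1, IL1A, IL1B and CCL2.

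CXCL1 (ENSG00000163739, chromosome 4, 73869393 to 73871308) also stood higher in every targeting library, in another order of reagents. It stood at 32.9 CPM in siSREBF1, 25.8 CPM in ASO-SREBF1-S1 and 15.8 CPM in ASO-SREBF1-S4, against 9.27 CPM in siNegative, 12.8 CPM in ASO-Neg and 13.1 CPM in mock. ASO-SREBF1-S4 lay closest to the controls for CXCL1, whereas ASO-SREBF1-S1 did for CXCL8. The targeting mean was 24.8 ± 8.62 CPM and the control mean 11.7 ± 2.14 CPM (SD, n = 3 each), and edgeR's log2 ratio was 1.09 (SE 0.25, adjusted p = 0.208).

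CXCL2 and CXCL3, the close paralogs of CXCL1, were near the limit of counting. CXCL2 had 7 counts in siSREBF1, 21 counts in ASO-SREBF1-S1 and 13 counts in ASO-SREBF1-S4, against 5 in siNegative, 6 in ASO-Neg and 8 in mock. CXCL3 had 6, 20 and 7 counts in the same targeting libraries, against 2, 2 and 9 counts in the same controls. At these counts the highest CXCL3 level, 0.706 CPM, was in mock, and both genes overlapped between the sides. Neither passed the low-count filter of that test. A small part of the transcripts is shared between paralogs: 3 of 1100 windows of 75 bases in the canonical CXCL1 transcript were also found in CXCL2, and 2.5% of CXCL2 and 2.3% of CXCL3 windows were found in a paralog. Reads from such windows may be lost or misplaced between CXCL1, CXCL2 and CXCL3.

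The promoters of these 4 CXC chemokines are shown because CXCL1 differed from CXCL2 and CXCL3 in level while their upstream sequences are alike. Each window runs from 250 bases before to 50 bases after the RefSeq start, written 5′ to 3′ on the gene's strand. Capitals mark matches to the kappaB-like motif GGNNTTTCC on either strand.
CXCL8 promoter, GRCh38.p14 chr4:73740319-73740618, plus strand: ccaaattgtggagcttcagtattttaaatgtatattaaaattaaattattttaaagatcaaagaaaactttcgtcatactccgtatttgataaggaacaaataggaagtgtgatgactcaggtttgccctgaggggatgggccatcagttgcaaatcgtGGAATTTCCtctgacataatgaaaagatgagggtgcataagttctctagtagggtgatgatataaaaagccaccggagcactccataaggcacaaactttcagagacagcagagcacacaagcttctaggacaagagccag
CXCL1 promoter, GRCh38.p14 chr4:73869143-73869442, plus strand: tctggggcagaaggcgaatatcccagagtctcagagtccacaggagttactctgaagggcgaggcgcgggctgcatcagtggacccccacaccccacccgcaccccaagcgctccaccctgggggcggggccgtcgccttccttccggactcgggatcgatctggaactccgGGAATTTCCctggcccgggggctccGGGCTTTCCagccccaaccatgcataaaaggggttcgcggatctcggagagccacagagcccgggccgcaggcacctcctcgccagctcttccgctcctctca
CXCL2 promoter, GRCh38.p14 chr4:74099146-74099445, minus strand: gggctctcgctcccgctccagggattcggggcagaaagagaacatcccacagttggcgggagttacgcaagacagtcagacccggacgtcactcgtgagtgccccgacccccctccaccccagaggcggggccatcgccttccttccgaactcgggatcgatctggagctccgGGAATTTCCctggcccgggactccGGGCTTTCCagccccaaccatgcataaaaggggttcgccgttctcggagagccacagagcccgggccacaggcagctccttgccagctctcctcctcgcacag
CXCL3 promoter, GRCh38.p14 chr4:74038640-74038939, minus strand: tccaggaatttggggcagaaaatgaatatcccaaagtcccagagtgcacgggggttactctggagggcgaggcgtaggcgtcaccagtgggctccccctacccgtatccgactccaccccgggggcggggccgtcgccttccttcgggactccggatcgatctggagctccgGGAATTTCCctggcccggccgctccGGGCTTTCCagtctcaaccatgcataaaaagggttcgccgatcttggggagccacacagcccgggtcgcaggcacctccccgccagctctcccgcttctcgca

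The CXCL1, CXCL2 and CXCL3 windows each held 2 kappaB-like matches with the same letters, GGAATTTCC and GGGCTTTCC. In CXCL1 and CXCL3 these began 78 and 53 bases before the start, written here as positions -78 and -53, and in CXCL2 at -77 and -53. Of all 35116 RefSeq promoter windows of this length, 6.26% held at least 1 such match and 0.296% held 2 or more. In a global alignment that allows gaps, the CXCL1 window shared 254 of 300 bases with CXCL3 and 240 with CXCL2, against 164 with CXCL8. These alignments held 16, 68 and 126 gap positions, and the identity of unrelated windows was not computed. The RNA level of CXCL1 exceeded those of CXCL2 and CXCL3 in every library. Per exon length, CXCL1 averaged 71.5 TPM (CPM corrected for exon length) in the targeting and 32.3 TPM in the control libraries. CXCL2 averaged 1.64 TPM in targeting and 1.10 TPM in control libraries, and CXCL3 averaged 0.76 TPM in targeting and 0.521 TPM in control libraries. CXCL8 held 1 kappaB-like match at -91 and 1 match to the AP-1 motif TGANTCA at -137, which 7.71% of windows hold. A match is a description of letters and not of binding.

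The other members with a promoter window differed in these motifs. IL6 held 1 kappaB-like match at -72 and 1 match to the C/EBP-like motif TTNNGNAA, a motif found in 36.8% of windows. CXCL2 held 1 C/EBP-like match as well, at -188. IL1A has 2 RefSeq starts whose windows overlap, and both held the same 2 AP-1 matches and no kappaB-like match. These IL1A windows held 2 and 1 C/EBP-like matches. IL1B and TREM1 held 3 C/EBP-like matches each and neither of the other motifs. The sterol regulatory element-like motif TCACNCCAC, present in 1.13% of windows, was not in any of the 8 members' windows. Both strands were searched for every motif, and no matches of different motifs overlapped. LIF and CCL2 were not matched in the promoter table.

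CXCL8, CXCL1, CXCL3 and CXCL2 lie in 1 chemokine cluster on chromosome 4, at 0, 128.9, 296.1 and 356.5 kb from the CXCL8 gene. The genes between them were almost silent. CXCL6, PF4V1, PPBP and CXCL5 had no counts in any library, and PF4 had 1 count in the 6 libraries together. A count of 0 still allows a low level, as its 95% counting interval in siNegative ended at 0.187 CPM.

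**Figure D2:**
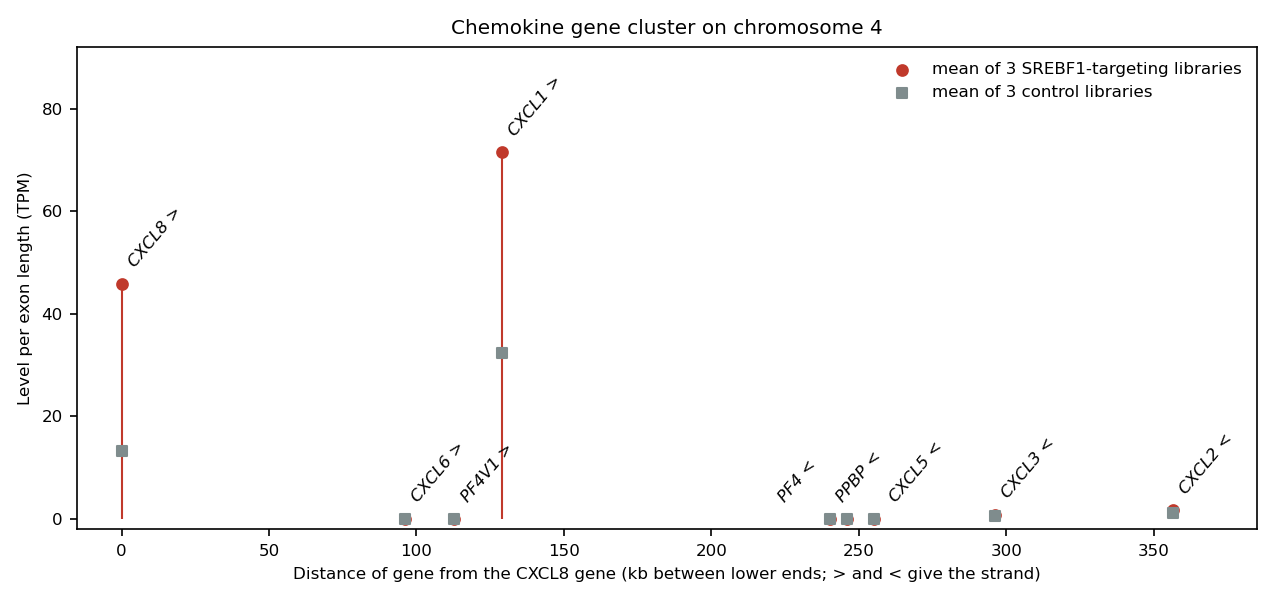
Level per exon length in TPM (vertical axis) of 9 genes of the chromosome 4 chemokine cluster against their distance from the CXCL8 gene in kb, as means of the 3 SREBF1-targeting (red circles) and 3 control libraries (grey squares), with > and < for the strand. CXCL8 (45.8 and 13.3 TPM) and CXCL1 (71.5 and 32.3 TPM) stand above the others, which lie at or near 0.

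CCL2, the monocyte chemokine (ENSG00000108691, chromosome 17, 34255274 to 34257208), was of low level in all libraries. It stood at 6.05 CPM in siSREBF1, 2.95 CPM in ASO-SREBF1-S1 and 3.39 CPM in ASO-SREBF1-S4, against 2.08 CPM in siNegative, 1.77 CPM in ASO-Neg and 1.18 CPM in mock. These levels rest on 81, 142 and 55 counts in the targeting libraries and 41, 30 and 15 counts in the controls. The sides did not overlap, with means of 4.13 ± 1.68 CPM in the targeting and 1.67 ± 0.457 CPM in the control libraries (SD, n = 3 each; log2 ratio 1.22, SE 0.32, edgeR adjusted p = 0.263).

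IL1A (ENSG00000115008) and IL1B (ENSG00000125538) lie 45.3 kb apart on chromosome 2, at 112773925 to 112784493 and 112829751 to 112836816. IL1A stood at 7.24 CPM in siSREBF1, 1.74 CPM in ASO-SREBF1-S1 and 2.46 CPM in ASO-SREBF1-S4, against 0.912 CPM in siNegative, 0.765 CPM in ASO-Neg and 1.02 CPM in mock. IL1A was under 1 CPM in siNegative and ASO-Neg, and siSREBF1 held the highest level. The mean was 3.81 ± 2.99 CPM in the targeting and 0.899 ± 0.128 CPM in the control libraries (SD, n = 3 each), and edgeR's log2 ratio was 1.99 (SE 0.56, adjusted p = 0.288). Without siSREBF1 it was 1.19 (edgeR adjusted p = 0.196).

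IL1B followed the same order of libraries within the targeting side. It stood at 3.51 CPM in siSREBF1, 0.788 CPM in ASO-SREBF1-S1 and 1.29 CPM in ASO-SREBF1-S4, against 0.405 CPM in siNegative, 0.235 CPM in ASO-Neg and 0.549 CPM in mock. It was under 1 CPM in 4 libraries, the 3 controls and ASO-SREBF1-S1, and the controls held only 8, 4 and 7 counts. IL1B passed the low-count filter, set at 0.6 CPM, through the targeting libraries alone, so its difference was partly a condition of being tested. Its log2 ratio was 2.09 (SE 0.65, edgeR adjusted p = 0.322), and 1.33 without siSREBF1 (adjusted p = 0.312). CASP1, the protease that matures interleukin-1 beta, stood at 9.34 ± 1.54 CPM in the targeting and 8.57 ± 1.24 CPM in the control libraries (SD, n = 3 each). The receptor gene IL1R1 stood at 12.5 ± 1.35 CPM in the targeting and 11.1 ± 0.329 CPM in the control libraries (SD, n = 3 each). Both genes were named after their values were seen.

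IL6 was at the limit of detection. It had 5 counts in siSREBF1, 20 counts in ASO-SREBF1-S1 and 3 counts in ASO-SREBF1-S4, against 0 in siNegative, 1 in ASO-Neg and 4 in mock. The 20 counts in ASO-SREBF1-S1 come from the deepest library and equal 0.415 CPM, against 0.373 CPM in siSREBF1 and 0.314 CPM in mock, so no order of these libraries can be read. The sides overlapped. IL6 in ASO-SREBF1-S1 over ASO-Neg was 7.05-fold (95% counting interval 1.13 to 292) and in ASO-SREBF1-S4 over ASO-Neg 3.14-fold (0.252 to 165). For siSREBF1 over siNegative, with 0 counts in the control, the interval began at 1.35. For siNegative over mock it ended at 0.978. The IL6 gene overlaps STEAP1B and IL6-AS1 on the other strand in GENCODE, and 20 reverse-strand counts became 15 in the unstranded column.

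LIF (ENSG00000128342, chromosome 22, 30240453 to 30246759) had the highest level of the 10 in every library and the smallest fold difference of the 7 tested. It stood at 172 CPM in siSREBF1, 124 CPM in ASO-SREBF1-S1 and 135 CPM in ASO-SREBF1-S4, against 123 CPM in siNegative, 111 CPM in ASO-Neg and 127 CPM in mock. siSREBF1 was highest, ASO-SREBF1-S1 lay below mock, and the sides overlapped. The mean was 143 ± 25.1 CPM in the targeting and 120 ± 8.03 CPM in the control libraries (SD, n = 3 each), and edgeR's log2 ratio was 0.25 (SE 0.12, adjusted p = 0.507). LIF overlaps 2 antisense genes, and in siSREBF1 its 2301 reverse-strand counts compare with 2218 without strand.

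TREM1 (ENSG00000124731, chromosome 6, 41267926 to 41286682) was split between the ASOs. It stood at 12.5 CPM in siSREBF1, 2.80 CPM in ASO-SREBF1-S1 and 9.05 CPM in ASO-SREBF1-S4, against 4.96 CPM in siNegative, 3.41 CPM in ASO-Neg and 3.53 CPM in mock. ASO-SREBF1-S1 was the lowest of the 6 libraries and the sides overlapped (log2 ratio 0.94, SE 0.48, edgeR adjusted p = 0.55). The log2 ratio of TREM1 was 1.41 without ASO-SREBF1-S1 (edgeR adjusted p = 0.021), 0.47 without siSREBF1 (adjusted p = 0.746) and 0.79 without ASO-SREBF1-S4 (adjusted p = 0.67). TYROBP, the adaptor through which TREM1 signals in myeloid cells, had no counts in any library. The list of immune markers described above also had a higher sum in the targeting libraries, at low levels, and its part in the TREM1 values was not tested. A pseudogene overlaps TREM1 on the same strand in GENCODE, and reads in the overlap may not have been counted.

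**Figure D3:**
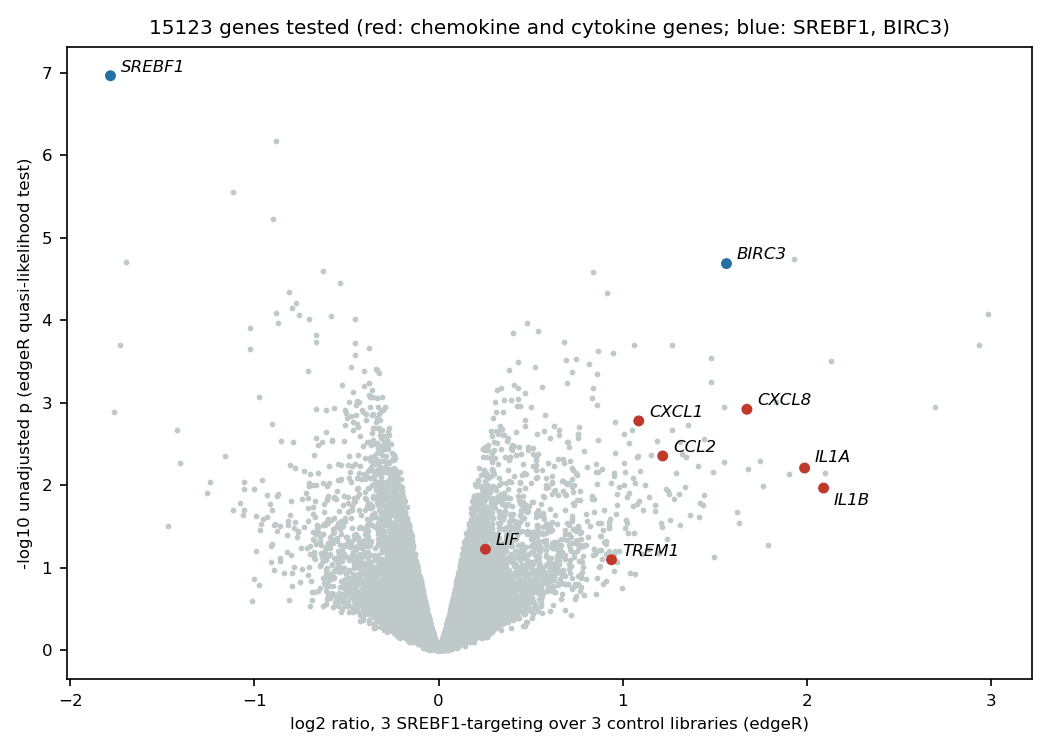
Unadjusted p of edgeR's quasi-likelihood test (vertical axis, -log10 scale) against the log2 ratio of the 3 SREBF1-targeting over the 3 control libraries (horizontal axis) for 15123 genes (grey), with the 7 tested members in red and SREBF1 and BIRC3 in blue. CXCL8 (log2 ratio 1.67), CXCL1 (1.09), CCL2 (1.22), IL1A (1.99) and IL1B (2.09) lie right of 0 and lower on the vertical axis than BIRC3, and none of the red points passed after adjustment.

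Per exon length, LIF led the 10 genes with means of 145 TPM in the targeting and 116 TPM in the control libraries. CXCL1 came next and CXCL8 after it on both sides. Within every library CXCL1 exceeded CXCL8. In the controls CXCL1 stood at 25.7 to 36.0 TPM and CXCL8 at 10.7 to 16.1 TPM. In siSREBF1 the levels of CXCL1 and CXCL8 were 95.9 and 74.1 TPM. They were 74.0 and 24.3 TPM in ASO-SREBF1-S1 and 44.5 and 38.9 TPM in ASO-SREBF1-S4. CCL2, IL1A and TREM1 followed at 8.36, 7.44 and 5.39 TPM in the targeting libraries, with overlapping ranges. In the controls CCL2, TREM1 and IL1A averaged 3.25, 2.53 and 1.67 TPM. Exon length here is the union of all annotated exons of a gene, so the order of genes can depend on that choice.

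Each reagent was then set against its own chemistry's control, which asks whether the members differ without mock and at a matched dose. These ratios compare 1 library with 1 library, so they have a 95% counting interval but no test of replicates. In siSREBF1 over siNegative, IL1B was 8.66-fold (counting interval 4.05 to 21.2) and IL1A 7.94-fold (4.77 to 14) higher. CXCL8 was 4.38-fold (3.75 to 5.13) and CXCL1 3.55-fold (2.98 to 4.24) higher. CCL2, TREM1 and LIF were 2.91-fold, 2.51-fold and 1.40-fold higher, with intervals that exclude 1. By the size rule of at least 2-fold with 10 CPM in 1 of the libraries, CXCL8, CXCL1 and TREM1 passed, where 0.517% of 9864 genes did in either direction. With a minimum of 1 CPM, IL1A, IL1B and CCL2 passed as well, 6 members in all, where 2.26% of genes did.

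In ASO-SREBF1-S1 over ASO-Neg the ratios were smaller. IL1B was 3.35-fold (counting interval 1.21 to 12.9), IL1A 2.28-fold (1.26 to 4.45), CXCL1 2.01-fold (1.74 to 2.33) and CXCL8 1.77-fold (1.49 to 2.12) higher. CCL2 was 1.67-fold (1.12 to 2.56) and LIF 1.11-fold (1.06 to 1.17) higher, and TREM1 had a ratio of 0.82 (0.599 to 1.14). No member passed the size rule, which 0.481% of 9765 genes passed, and CXCL1 lay just under it, its log2 ratio after the prior count of 2 rounding to 1.00. With a minimum of 1 CPM 1 member passed, IL1A, where 1.24% of genes did.

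ASO-SREBF1-S4 against the same control gave another order. IL1B was 5.49-fold (counting interval 1.85 to 22), IL1A 3.22-fold (1.69 to 6.56), CXCL8 2.89-fold (2.39 to 3.49) and TREM1 2.65-fold (1.94 to 3.66) higher. CCL2 was 1.92-fold (1.21 to 3.10), CXCL1 1.23-fold (1.02 to 1.48) and LIF 1.21-fold (1.14 to 1.29) higher. CXCL8 was the member that passed the size rule, where 0.7% of 9855 genes did. TREM1 did not reach 10 CPM. With a minimum of 1 CPM 4 members passed, CXCL8, IL1A, IL1B and TREM1, where 3.4% of genes did. Both ASO comparisons share the ASO-Neg library, so their values are not independent.

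**Figure D4:**
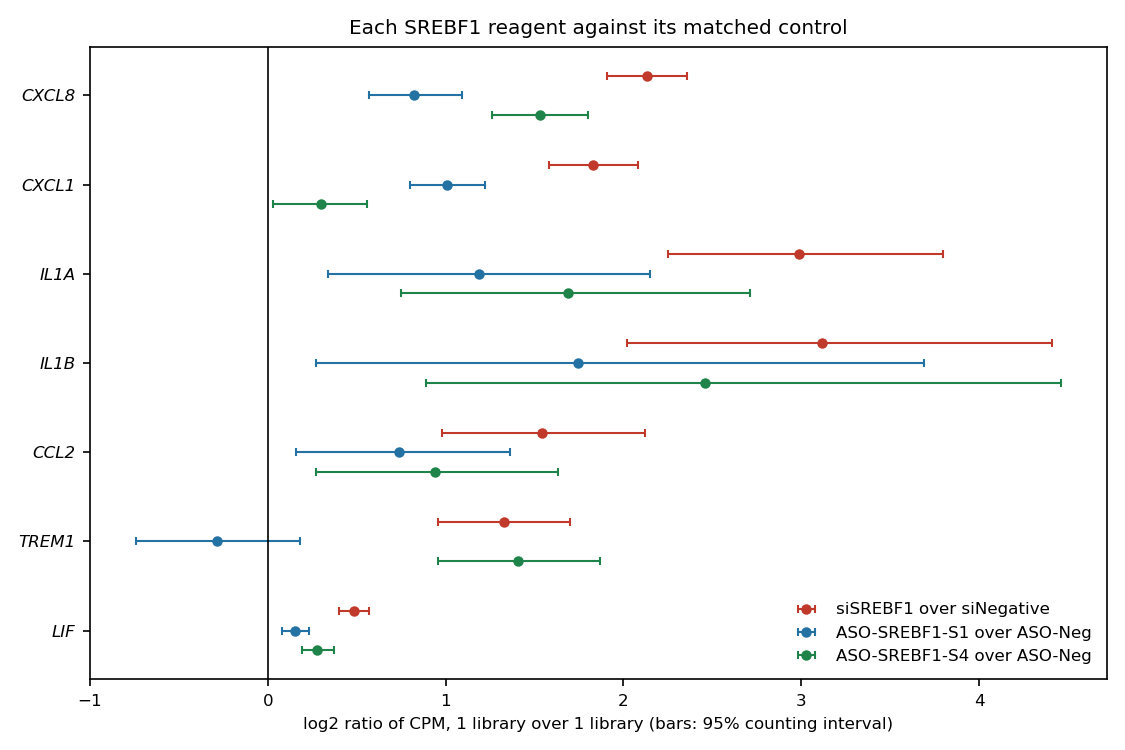
log2 ratio of CPM for 7 genes (horizontal axis) in siSREBF1 over siNegative (red), ASO-SREBF1-S1 over ASO-Neg (blue) and ASO-SREBF1-S4 over ASO-Neg (green), with 1 library on each side and 95% counting intervals as bars. The TREM1 interval in ASO-SREBF1-S1 crosses 0, and the red points of IL1A and IL1B are farthest to the right.

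Between the ASOs themselves, the clearest differences were in TREM1, CXCL8 and CXCL1. TREM1 in ASO-SREBF1-S1 was 0.309 times that in ASO-SREBF1-S4 (95% counting interval 0.243 to 0.394) and CXCL8 was 0.615 times (0.545 to 0.693). CXCL1 ran the other way, at 1.63 times (1.43 to 1.88). For CCL2 the ratio was 0.87 (0.633 to 1.21), for IL1A 0.708 (0.48 to 1.06) and for IL1B 0.61 (0.349 to 1.09), intervals that include 1. SREBF1 differed little between the ASOs, with a ratio of 1.09 (1.02 to 1.17). No member reached 2-fold with 10 CPM, and 1.08% of 9872 genes did. With a minimum of 1 CPM TREM1 passed, lower in ASO-SREBF1-S1, where 3.02% of genes passed in either direction. This comparison was added after the data had been seen.

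The siRNA pool was tested against the ASO pair within a fit of 3 classes. CXCL8 was higher in siSREBF1 than in either ASO (log2 ratio 1.22, SE 0.27, edgeR adjusted p = 0.186). IL1A came closest to the threshold (log2 ratio 1.83, SE 0.29, edgeR adjusted p = 0.0619), followed by CXCL8 and IL1B (log2 ratio 1.84, SE 0.43, edgeR adjusted p = 0.221). None of the 9 members tested passed in edgeR, where 0.147% of 16297 genes did, and 6 had an unadjusted p under 0.05 against 8.71% of all genes in either direction and 4.39% with a higher level. DESeq2 called CXCL8 and IL1A among 127 genes, and limma-voom called IL1A among 28. The class of siSREBF1 is a single library, whose spread is taken to equal that of the rest. With 1 ASO left out, this contrast set 1 library against 1 library, with the spread taken from the controls alone, so only log2 ratios are given. Without ASO-SREBF1-S1 they were 0.88 for CXCL8, 1.06 for CXCL1, 1.55 for IL1A and 0.46 for TREM1. Without ASO-SREBF1-S4 they were 1.58, 0.35, 2.05 and 2.15 for the same genes.

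The ASO pair against the 3 controls, from the same fit, again had no member past the threshold in edgeR, where 0.043% of genes passed. In log2 ratio CXCL8 stood at 1.16 (SE 0.22, edgeR adjusted p = 0.111), IL1A at 1.18 (SE 0.27, adjusted p = 0.178) and CXCL1 at 0.86 (SE 0.22, adjusted p = 0.216). CXCL2 and CXCL3, which passed the filter of this fit, stood at 0.52 and 0.62 (edgeR adjusted p = 0.763 and 0.8). An unadjusted p under 0.05 was seen for 5 of 9 members tested and for 11.2% of all genes in either direction, 5.34% with a higher level. DESeq2 called CXCL8 and CXCL1 among 177 genes, and limma-voom called no member. Leaving out ASO-SREBF1-S1 gave 3 members (CXCL8, IL1A and TREM1) and leaving out ASO-SREBF1-S4 gave 2 (CXCL8 and CXCL1), among 955 of 16088 and 868 of 16157 genes called, beside 7 of 16297 with all 6 libraries. This comparison and the previous one share the ASO libraries.

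Whether the matched siRNA effect exceeded the matched ASO effect was tested as an interaction. The difference in log2 ratio was 0.93 for CXCL8 (SE 0.46), 1.12 for CXCL1 (SE 0.47) and 1.56 for IL1A (SE 0.71), each with an edgeR adjusted p of 1. In edgeR 0 members and 0% of 16297 genes passed. CXCL1 was the 1 member of 9 with an unadjusted p below 0.05, as 1.44% of all genes had in either direction and 0.46% with a positive difference. limma-voom called none. That count of 1 was 0 with median-of-ratios scaling and in limma-voom, 2 with the unstranded column and 3 with no low-count filter. The fit had 1 residual degree of freedom. Dose differed with chemistry, so their effects cannot be told apart.

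The non-targeting reagents against mock give the level of difference seen without SREBF1 depletion. In siNegative over mock, CXCL8 was 1.5-fold (counting interval 1.17 to 1.93) higher and CXCL1 had a ratio of 0.707 (0.57 to 0.878). In ASO-Neg over mock, CXCL8 had a ratio of 1.23 (0.945 to 1.61), CXCL1 of 0.979 (0.797 to 1.21) and LIF of 0.878 (0.821 to 0.939). CCL2 had a ratio of 1.76 (0.956 to 3.43) in siNegative over mock and of 1.5 (0.782 to 3) in ASO-Neg over mock, beside 1.67 in ASO-SREBF1-S1 over ASO-Neg. TREM1 had ratios of 1.41 (0.978 to 2.05) in siNegative over mock and 0.967 (0.644 to 1.46) in ASO-Neg over mock. At 2 counts against 9, CXCL3 had ratios of 0.143 (0.0151 to 0.693) in siNegative over mock and 0.167 (0.0175 to 0.805) in ASO-Neg over mock. The ratio of IL1A was 0.894 (0.414 to 1.98) in siNegative over mock and 0.75 (0.32 to 1.76) in ASO-Neg over mock. IL1B, at 8 counts in siNegative, 4 in ASO-Neg and 7 in mock, had ratios of 0.738 (0.234 to 2.39) and 0.429 (0.092 to 1.69) in the same comparisons. The IL1B ratios over ASO-Neg given above thus rest on the lowest of the controls. No member passed the size rule in either comparison, where 0.0102% of 9805 and 0.0921% of 9769 genes did. With a minimum of 1 CPM there was again no member, where 0.952% and 1.59% of genes passed. Both comparisons share the mock library.

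The genes around these cytokines were read from lists, and those named without passing an adjusted p or the size rule (NFKBIA, IL11, TNF, IL6ST, CXCR2, SOCS3, TREM2 and TYROBP) were named after their values were seen. List counts and medians are for SREBF1-targeting over control unless another comparison is named. In the list of the NF-kB pathway and its feedback, 1 of 20 genes rose over all genes tested. It was BIRC3, an inhibitor of apoptosis and NF-kB target, at 6.05 ± 0.566 CPM in the targeting and 2.05 ± 0.423 CPM in the control libraries (SD, n = 3 each; log2 ratio 1.56, edgeR adjusted p = 0.0442). The genes edgeR called in all, 9 with the 6 libraries, numbered between 1 and 103 with 1 library left out. Another 10 of the 20 were higher in all 3 targeting libraries without passing, a pattern that 8.87% of all genes tested had. NFKBIA, the NF-kB inhibitor induced by NF-kB itself, stood at 21.0, 12.7 and 14.8 CPM in siSREBF1, ASO-SREBF1-S1 and ASO-SREBF1-S4, against 11.7, 11.8 and 12.0 CPM in siNegative, ASO-Neg and mock. As with CXCL8, siSREBF1 was highest and ASO-SREBF1-S1 nearest the controls. The list's median log2 ratio was 0.13, beside 0.006 for all genes, with 6 genes at an unadjusted p under 0.05 (10.2% of all genes), 1 called by DESeq2 and none by limma-voom. TRAF1, an NF-kB-induced signalling adaptor, was highest in ASO-SREBF1-S4 and lowest of the targeting libraries in siSREBF1, at 4.78, 7.90 and 17.2 CPM in the same targeting libraries, against 3.24, 4.71 and 2.51 CPM in the controls (edgeR adjusted p = 0.292).

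In the list of C/EBP and AP-1 factors, which act at cytokine promoters, none of 12 passed in edgeR, 6 had an unadjusted p under 0.05 (10.2% of all genes), and DESeq2 called 1 and limma-voom none. Their median log2 ratio was 0.30, beside 0.006 for all genes, and 5 were higher in all 3 targeting libraries (8.87% of all genes). JUN, an AP-1 subunit, stood at 15.2, 12.6 and 9.29 CPM in siSREBF1, ASO-SREBF1-S1 and ASO-SREBF1-S4, against 6.43, 7.95 and 7.53 CPM in siNegative, ASO-Neg and mock (edgeR adjusted p = 0.228). For JUN, as for CXCL1, ASO-SREBF1-S4 lay nearest the controls.

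Other cytokines and chemokines gave few values. Of 23 other cytokines and growth factors 11 were tested and none passed in edgeR, 2 having an unadjusted p under 0.05 (10.2% of all genes). Their median log2 ratio was 0.24, beside 0.006 for all genes, and 9 of the 11 were above 0. In all 3 targeting libraries 2 were higher than in every control (8.87% of all genes). IL24, a cytokine of the IL-10 family, stood at 27.3, 58.1 and 42.3 CPM in siSREBF1, ASO-SREBF1-S1 and ASO-SREBF1-S4, against 30.3, 26.3 and 38.5 CPM in siNegative, ASO-Neg and mock (edgeR adjusted p = 0.57). IL24 was thus lowest in the library where CXCL8 and IL1A were highest, within the targeting side. IL11, of the IL-6 family, stood at 1.94, 1.35 and 1.85 CPM in the same targeting libraries, against 0.81, 0.294 and 0.706 CPM in the same controls (edgeR adjusted p = 0.237). Of 22 other CXC and CC chemokines 6 were tested, with a median log2 ratio of -0.03. None passed the threshold in edgeR, and 1 had an unadjusted p under 0.05 (10.2% of all genes). For SREBF1-targeting over control DESeq2 and limma-voom called none of either list, while DESeq2 called 1 other cytokine in the ASO pair over control and 1 in siSREBF1 over the ASO pair. TNF, a classical inducer of these genes, did not pass the low-count filter and reached at most 0.0785 CPM.

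The receptor list had a median log2 ratio of 0.01 over 7 of 12 genes tested, and none passed in edgeR, DESeq2 or limma-voom or had an unadjusted p under 0.05. IL6ST, the shared signalling chain, stood at 297 ± 4.52 CPM in the targeting and 292 ± 29.5 CPM in the control libraries (SD, n = 3 each). CXCR2, a receptor for CXCL8 and CXCL1, had 9 counts in all, at 0.149, 0.124 and 0.0615 CPM in siSREBF1, ASO-SREBF1-S1 and ASO-SREBF1-S4, against 0 in the 3 controls, too few for the test. The lists of inhibitors and processing genes, of STAT3 signalling and of mRNA decay factors had medians of -0.04, -0.02 and 0.05. In SREBF1-targeting over control none of their genes passed in edgeR, DESeq2 or limma-voom. Of 7, 9 and 9 genes tested, 0, 1 and 2 had an unadjusted p under 0.05 in edgeR (10.2% of all genes). In siSREBF1 over the ASO pair DESeq2 called 1 gene of the inhibitors and processing list. SOCS3, a STAT3 target, stood at 15.5 ± 3.85 CPM in the targeting and 15.7 ± 0.775 CPM in the control libraries (SD, n = 3 each). No gene of the TREM list passed the filter of SREBF1-targeting over control. TREM2, with 35 counts in all, passed that of the fit of 3 classes through ASO-SREBF1-S4 alone. It stood at 0.677 CPM there and at 0.118 to 0.29 CPM in the other libraries. Its log2 ratio was 1.35 in the ASO pair over control (edgeR adjusted p = 0.476) and -1.46 in siSREBF1 over the ASO pair. These differences were partly a condition of being tested.

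Many cytokine transcripts are known to be short-lived, a property linked to AUUUA pentamers in the 3′ untranslated region. In canonical transcripts, 9 of the 10 members had 5 or more such pentamers (ATTTA in the annotation's letters), as had 28.9% of 19538 coding transcripts. Per kilobase, IL6 held 14.1 and CXCL2 14.0, values that 0.357% and 0.384% of transcripts reach. These shares and the median below are over the 18481 transcripts whose region has 100 bases or more. CXCL3 held 10.4, IL1B 9.84, CXCL1 7.77, CXCL8 7.19 and IL1A 4.38. LIF with 2.19 and TREM1 with 1.98 were near the median of 1.64, and CCL2 held 2.66 in a short region. The densest, IL6, CXCL2 and CXCL3, were under 1 CPM throughout. The 5 genes whose sides did not overlap ran from CCL2, with a single pentamer, to IL1B, at 9.84 per kilobase.

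Across the 6 libraries the log2 levels of CCL2, IL1A and IL1B followed CXCL8 with Pearson's r of 0.98, 0.96 and 0.93. LIF and TREM1, whose sides overlapped, had r of 0.87 and 0.85, CXCL1 had 0.76, and the low genes IL6, CXCL2 and CXCL3 had 0.42, 0.37 and 0.28. Among 11052 other genes with a mean of at least 5 CPM, those most like CXCL8 were DNER (r = 0.9922), HSPA13 (0.9916), TMX4 (0.9901), RNF13 (0.9864) and MOXD1 (0.9862). DNER, a Notch ligand, stood at 11.2, 6.20 and 7.39 CPM in siSREBF1, ASO-SREBF1-S1 and ASO-SREBF1-S4, against 5.42, 4.77 and 4.39 CPM in siNegative, ASO-Neg and mock. These are descriptions over 6 libraries, and the leading genes were picked as the highest r of many.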

How the data were processed

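The files held whole-number counts per gene, 1 per sequencing lane, from stranded poly(A) libraries read in pairs at 75 bp each end (labels' protocols). The submitters' processing notes name STAR 2.6.1a, FastQC and the build GRCh38. Which gene annotation the authors counted on is not given in the sources used here. The deposited reverse-strand count column was used, because the other strand held 6.47% to 7.79% of both. Pairs not assigned to a gene (18.18% to 19.35% of a library) were left out. Of the 58735 identifiers, 58207 matched GENCODE release 44, which gave positions, exon lengths and transcripts. Promoter windows are RefSeq's on GRCh38.p14.

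The 24 files were 4 lanes of 6 libraries. Lanes of 1 library differed by a chi-square per degree of freedom of 1.018 to 1.047, against 2.03 to 8.69 between libraries, so lanes were summed. Tests used edgeR 4.0.16 in R 4.3.3 (TMM, filterByExpr, quasi-likelihood F test, 2-sided, Benjamini-Hochberg over all genes at 0.05), with limma 3.58.1 and DESeq2 1.42.0 as alternatives. They were also run on simulated counts in which the targeting libraries were repeats with a shared effect. The real sides are different reagents, so that run does not show how the tests perform here. P-values measure the spread between libraries that received different reagents, and nothing says that libraries came from separate cultures. SE is the log2 ratio over the root of F. Single-library ratios have exact binomial 95% counting intervals, which cover counting error only, and the size rule used a prior count of 2. TPM were computed from the union of a gene's GENCODE exons. This length can exceed the canonical transcript, with 5891 against 3252 bases for TREM1 but 2017 for both in IL1A. The members and lists were chosen with earlier results of these data known. Named list genes passed an adjusted p of 0.05 or the size rule against a matched control, unless said otherwise.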

Additional observations from a re-analysis of the deposited data

How the results depend on the processing

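Counts of members past the threshold depended on the tool and the filter. With no low-count filter, edgeR called 6 members in SREBF1-targeting over control, 4 in the ASO pair over control and 5 in siSREBF1 over the ASO pair, and it called 509, 563 and 380 genes in all. DESeq2 called 5, 2 and 2 members (170, 177 and 127 genes), and limma-voom called 1 in siSREBF1 over the ASO pair. The causes were not tested. Leaving out 1 library gave 0 to 3 members in SREBF1-targeting over control (3 without ASO-SREBF1-S1: CXCL8, IL1A and TREM1), 0 to 3 in the ASO pair over control and 0 to 5 in siSREBF1 over the ASO pair. In the ASO comparisons the highest counts came without an ASO (3 and 2, then 3 and 5, without ASO-SREBF1-S1 and ASO-SREBF1-S4), where the spread comes from the controls alone. Median-of-ratios scaling, the unstranded column and chemistry as a term without mock left each count at 0, where run. For the size rule, a minimum of 1 CPM gave 6 members in siSREBF1 over siNegative, 1 in ASO-SREBF1-S1 over ASO-Neg, 4 in ASO-SREBF1-S4 over ASO-Neg and 1 (TREM1) in ASO-SREBF1-S1 over ASO-SREBF1-S4. A prior count of 0.5 gave 1 in ASO-SREBF1-S1 over ASO-Neg (CXCL1), and leaving out 1 lane gave 0 to 1 there. Signs turned for TREM1 in the ASO pair over control (0.45, but -0.01 in limma-voom and -0.52 to 1.16 with 1 library left out, the lowest without ASO-SREBF1-S4) and for CXCL2 in siSREBF1 over the ASO pair (-0.11, but 0.64 unstranded, 0.06 in limma-voom and -0.61 to 0.26 with 1 library left out, the highest without ASO-SREBF1-S4). Depth limits CXCL2, CXCL3, IL6 and IL1B. No paired analysis was possible because the replicate numbers are lanes of 1 library, which were summed.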
